A study of Mus musculus with 24 samples.

Results

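The genes described here are 10 members of the neuregulin and epidermal growth factor (EGF) family: 6 that encode ligands (Nrg1, Nrg4, Egf, Hbegf, Btc and Tgfa) and 4 that encode the ErbB receptors (Egfr, Erbb2, Erbb3 and Erbb4). They were taken by gene symbol from a count table of 21878 genes, and all 10 were present. They were measured by bulk RNA sequencing of mouse hearts 3 weeks after surgical myocardial infarction (MI), and the region of the heart sampled is not stated. All mice were ovariectomised (OVX), so no group had its ovaries, and all carried an adeno-associated virus (AAV9), which enters heart muscle readily. Neither strain nor age of the mice is stated in the labels. There were 5 libraries from mice given AAV9-OE miR-21, which overexpresses the microRNA miR-21, and trained by swimming before the infarction (miR-21 swimming). Another 6 came from mice with AAV9-OE miR-21 that did not swim (miR-21 control). The empty virus, AAV9-Empty, gave 6 libraries with swimming (empty-vector swimming) and 6 without (empty-vector control). Whether each library stands for its own mouse is not stated, so the p-values measure only library-to-library spread, which may be technical. The labels also do not name the promoter of the vectors, and 0 rows of the count table are named for the precursor of miR-21, so its overexpression could not be checked here.

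ErbB receptors are tyrosine kinases that pair up when a ligand binds and then signal through the RAS-ERK and PI3K-AKT pathways. EGF and TGF-alpha bind the EGF receptor, HB-EGF and betacellulin bind both the EGF receptor and ErbB4, and neuregulins bind ErbB3 or ErbB4, while ErbB2 has no known ligand and serves as the preferred partner of the others. In the heart, neuregulin-1 released by endothelial cells acts on ErbB4 and ErbB2 of cardiomyocytes, and this route is needed for the heart to form and for adult heart muscle to withstand stress.

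A microRNA pairs through its seed (bases 2 to 8) with messages that hold the complementary word, most often in the 3′ untranslated region (UTR), so the words for miR-21 were searched in the members' 3′ UTRs. The first sequence is mature mouse miR-21, read from RefSeq at chr11:86584120-86584141 of GRCm38.p6, minus strand, with the seed in capitals. The others are 29-base stretches of 3′ UTRs from GENCODE M21 (GRCm38) on the strand of the gene, with the matched word in capitals, for the 3 members of 10 that hold such a word. They are shown because Egf and Egfr are the members called changed with the miR-21 vector without swimming, in opposite directions.
mmu-miR-21a-5p: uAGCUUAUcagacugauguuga
Egf, chromosome 3: caagacattcatatATAAGCTgtgtcttc
Egfr, chromosome 11, word nearer the stop codon: tctactttcttttgATAAGCTtgtgcttg
Egfr, chromosome 11, word farther from the stop codon: cattattacagagcTAAGCTAgaccgtta
Erbb4, chromosome 1, word nearest the stop codon: aagtagtttgcactTAAGCTAtaatttta
Erbb4, chromosome 1, middle word: gctgtaaagactatATAAGCTccaatatc
Erbb4, chromosome 1, word farthest from the stop codon: gcataaactggtaaATAAGCTgttaaaat
ATAAGCT pairs with bases 2 to 8 of miR-21, and TAAGCTA pairs with bases 2 to 7 and ends in A. Only the strand of the gene was searched, and both words may overlap in a site. The Egf word starts 255 bases after the stop codon in a 3′ UTR of 755 bases. The Egfr words start 3702 and 4132 bases after it in a 3′ UTR of 6303 bases, and the Erbb4 words start 1118, 5251 and 6594 bases after it in 1 of 7855 bases. Among 12969 tested genes with a 3′ UTR, whose median length was 1192 bases, 7.81% held ATAAGCT, 7.67% held TAAGCTA and 12.5% held either. The 3′ UTRs of Nrg1, Nrg4, Hbegf, Btc, Tgfa, Erbb2 and Erbb3 held neither word. A matched word is a description of the sequence and not a measured site.

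Libraries held 12744241 to 14657630 counts. The numbers in the sample titles fall into 2 series, in the 1300s and in the 2000s, and the labels do not say what they mark. Both control groups and replicates 1 and 2 of miR-21 swimming are in the 1300s, while empty-vector swimming and replicates 3 to 5 of miR-21 swimming are in the 2000s. Swimming and title series therefore cannot be told apart with the empty vector. The 3 libraries miR-21 swimming replicate 2 and empty-vector control replicates 2 and 5 stood apart by their summed level of 8 adipocyte markers, at 402, 457 and 378 CPM (counts scaled to a common library size, TMM-normalised). All other libraries were lower. Summed CPM of 8 fibroblast markers ranged over 1126 to 4741 in miR-21 swimming, 1179 to 1894 in miR-21 control, 1543 to 3079 in empty-vector swimming and 1744 to 7103 in empty-vector control. Its highest values were in miR-21 swimming replicate 2 (4741) and empty-vector control replicates 2, 4 and 5 (7103, 4642 and 5503). Cardiomyocyte markers, which check the tissue label, summed to 54472 to 113563 CPM in all 23 libraries. Results that change without these 3 libraries are given also without them.

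Within the family, messages for HB-EGF and for the ErbB2 and ErbB3 receptors dominated in every group (per length, as FPKM, the count divided by gene length and library total). Hbegf averaged 8.72 ± 3.31 FPKM over the 23 libraries (SD), Erbb2 averaged 3.97 ± 0.37 and Erbb3 averaged 3.67 ± 0.84. Egf followed at 1.91 ± 0.57 FPKM and Egfr at 1.30 ± 0.63. The other 5 members were all below 1 FPKM on average: Btc at 0.613, Nrg4 at 0.574, Nrg1 at 0.352, Erbb4 at 0.343 and Tgfa at 0.297. Hbegf was above Erbb2, and Erbb3 was above Egf, in 23 of 23 libraries. Erbb2 was above Erbb3 in 12 of 23 libraries, so these neighbours did not differ beyond their spread. The same was true of Btc and Nrg4 (14 of 23). Nrg1 had a higher mean than Erbb4 and was yet above it in 6 of 23 libraries, those in which Nrg1 was high. Egf exceeded Egfr in 17 of 23 libraries. The FPKM values imply a length of 15190 bases for Nrg1 and 18492 for Erbb4 and 2375 for Hbegf, by which the counts were divided.

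**Figure D1:**
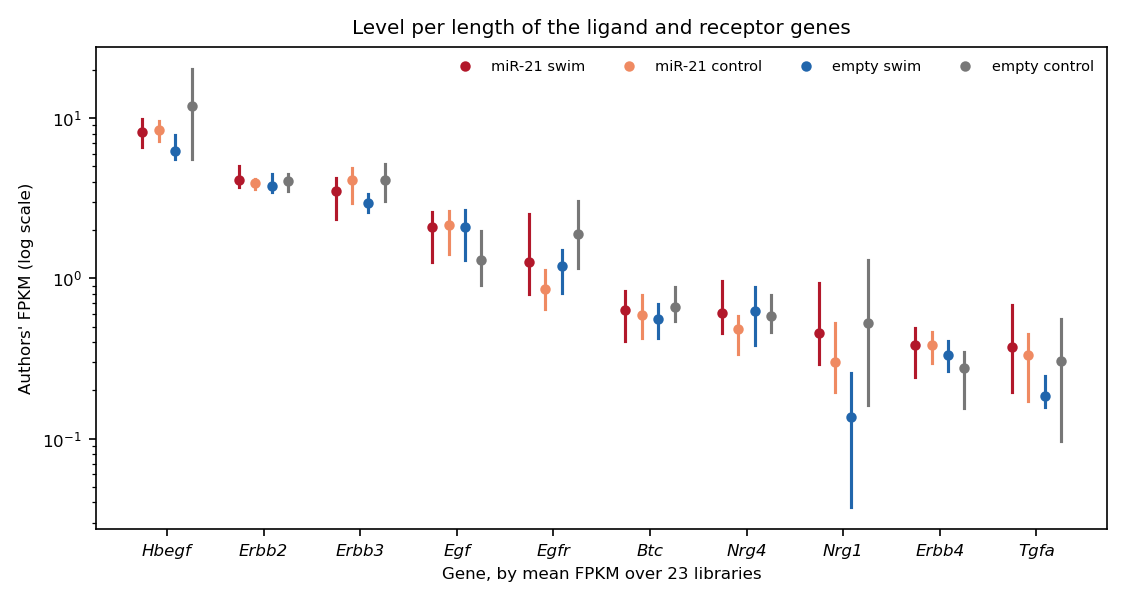
Authors' FPKM (log axis) of the 10 genes in order of their mean over 23 libraries. Points are group means and vertical lines run from the lowest to the highest library of miR-21 swimming (n = 5), miR-21 control, empty-vector swimming and empty-vector control (n = 6 each). Hbegf stands above all other members and Nrg1 has the widest range.

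Hbegf made up most of the summed FPKM of the 6 ligands: 65.8% in miR-21 swimming, 68.5% in miR-21 control, 63.3% in empty-vector swimming and 75.8% in empty-vector control hearts. Egf made up 17.3%, 17.6%, 21.3% and 9.75% in the same order of groups. Among the 4 receptors, Erbb2 and Erbb3 together held most of the summed FPKM, with Erbb2 at 44.5%, 42.4%, 46.0% and 39.5% and Erbb3 at 37.9%, 44.2%, 35.6% and 39.7%. The Egfr share was 13.4%, 9.25%, 14.4% and 18.2%. Erbb4 was the smallest share of the receptors at 4.22%, 4.13%, 4.05% and 2.64%. In bulk RNA of a heart, fewer cells of a type and less RNA per cell cannot be told apart, and this holds for every level given here.

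All 10 members passed the filter on low counts, and each was tested with edgeR's quasi-likelihood test with Benjamini-Hochberg adjustment over 13501 genes, at an adjusted p of 0.05. In empty-vector swimming against empty-vector control, 2 of the 10 members fell, the ligands Hbegf and Nrg1, where 7.46% of all genes tested were called. In miR-21 control against empty-vector control, the ligand Egf rose and the receptor Egfr fell, 2 of 10 members where 2.25% of all genes were called. In miR-21 swimming against empty-vector swimming Nrg1 rose, 1 of 10 members where 4.58% of all genes were called. In miR-21 swimming against miR-21 control, 0 of 10 members changed by edgeR, and 0 had an unadjusted p under 0.05, where 0.17% of all genes were called. DESeq2 and limma voom also called 0 there. Without the 3 libraries that stood apart the 4 counts were 4, 2, 1 and 0 of 10, the 2 added being Egf and Erbb3 in empty-vector swimming, and 11.6%, 5.76%, 17.3% and 1% of all genes were then called. The median log2 fold change of the 10 members was -0.35, -0.014, 0.21 and 0.012 in these comparisons, and that of all genes tested was -0.0048, -0.0048, 0.018 and 0.029.

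**Figure D2:**
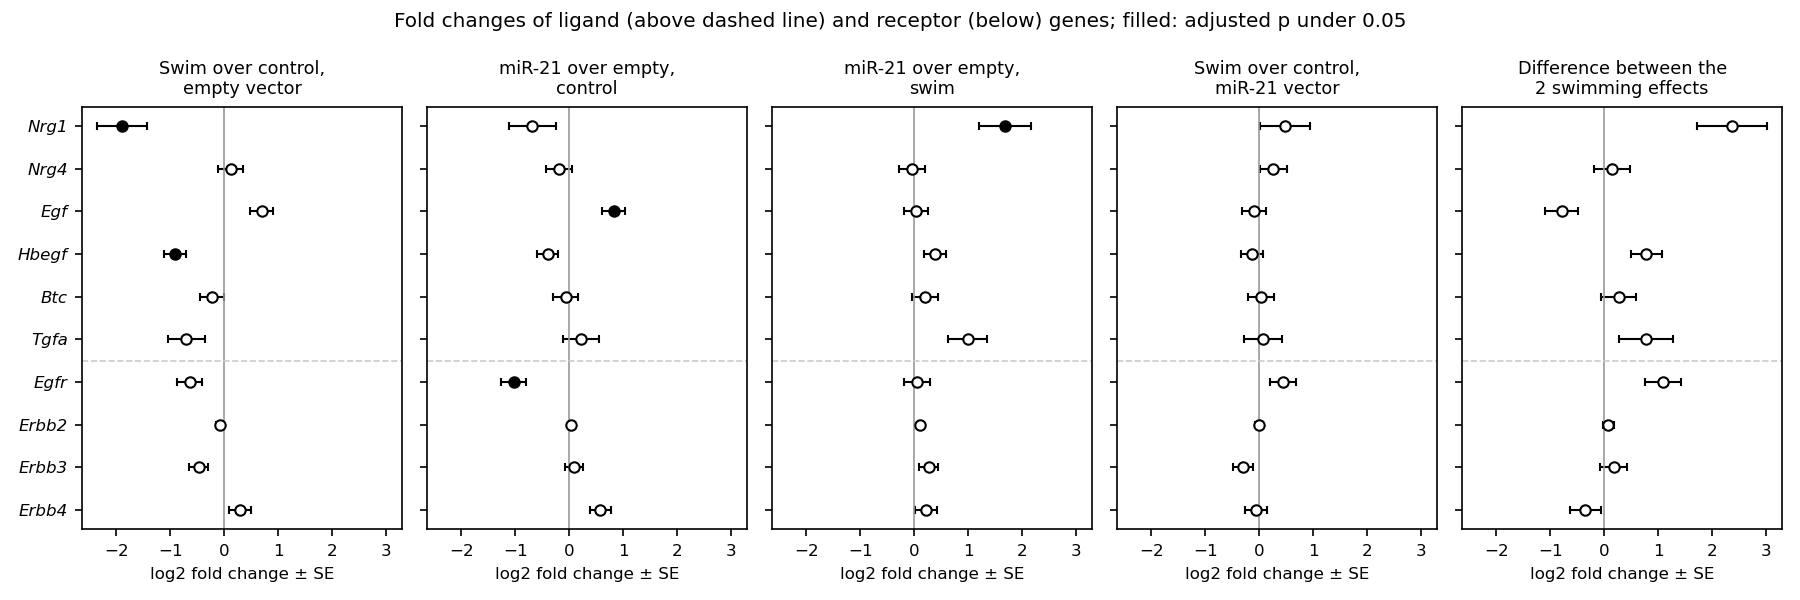
Log2 fold change (edgeR, points) with its standard error (bars) of each member, ligands above the dashed line and receptors below it, in 4 comparisons and in the interaction (swimming effect with the miR-21 vector minus that with the empty vector). Filled points have an adjusted p under 0.05: Nrg1 and Hbegf in the first panel, Egf and Egfr in the second, Nrg1 in the third, and none in the last 2.

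The comparisons share libraries: empty-vector control serves both the first and the second, and empty-vector swimming both the first and the third. A shift in those libraries moves both comparisons at once. The effect of swimming with the miR-21 vector minus that with the empty vector (the interaction) was called for 0 of 10 members by edgeR, where 0.541% of all genes were called. At an unadjusted p under 0.05 it would include 4 members, beside 21.5% of all genes. DESeq2 called 2 members and 5.33% of all genes, and limma voom called 0 members and 0.97% of all genes. The 4 were Nrg1 (2.37 ± 0.66 on the log2 scale, SE, adjusted p = 0.0692), Egfr (1.08 ± 0.33, adjusted p = 0.0918), Hbegf (0.78 ± 0.28, adjusted p = 0.133) and Egf (-0.79 ± 0.31, adjusted p = 0.155). The effects of swimming under the 2 vectors are therefore not shown to differ for any member by the edgeR test. The 2 that DESeq2 called were Nrg1, with an adjusted p of 0.0137, and Egfr, with 0.0424.

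Nrg1 encodes neuregulin-1, the ligand of ErbB3 and ErbB4. Its level was 4.58, 12.2, 5.38, 5.01 and 6.01 CPM in the 5 miR-21 swimming libraries. In miR-21 control it ran from 3.21 CPM to 8.32 CPM (median 4.30), in empty-vector swimming from 0.557 to 3.86 (median 1.88) and in empty-vector control from 2.47 to 18.1 (median 6.71). Empty-vector swimming held the lowest libraries of the series, and 4 of its 6 were below every empty-vector control library. The log2 fold change was -1.90 ± 0.47 (SE) for empty-vector swimming over empty-vector control (edgeR, adjusted p = 0.0179), with 6 of 6 libraries below the control mean. The groups overlapped, and empty-vector control replicate 5, the highest at 18.1 CPM, mattered: without it the change was -1.44 with an adjusted p of 0.0567. With only the 2 groups in the fit the call was also lost, at -1.91 with an adjusted p of 0.055. With a term for the title series, which rests on the 2 series within miR-21 swimming alone, it was -1.27 with an adjusted p of 0.548, and without the 3 libraries that stood apart it was -1.48 with 0.0326.

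The miR-21 vector in swimming mice was set against the same empty-vector swimming libraries. All 5 miR-21 swimming libraries, the lowest at 4.58 CPM, were above the highest empty-vector swimming library at 3.86 CPM. The log2 fold change was 1.68 ± 0.48 (edgeR, adjusted p = 0.0493). This call sat at the threshold. It was lost with upper quartile scaling (adjusted p = 0.0512), with no filter (0.0685), with only the 2 groups (0.0804) and with the title series term (0.158). It was also lost when any 1 library of miR-21 swimming was left out, or replicates 1, 2, 3, 4 or 6 of miR-21 control, replicates 1, 2, 4, 5 or 6 of empty-vector swimming, or replicates 4 or 6 of empty-vector control, with adjusted p up to 0.111 and log2 fold changes of 1.35 to 1.96 over all 23 libraries left out. Within the libraries numbered in the 2000s, where title series does not differ, the change was 1.41 (adjusted p = 0.0671), and without the 3 libraries that stood apart it was 1.34 (adjusted p = 0.0421). Nrg1 was not called for miR-21 control over empty-vector control (-0.68 ± 0.44, adjusted p = 0.299) or for miR-21 swimming over miR-21 control (0.47 ± 0.46, adjusted p = 0.575).

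**Figure D3:**
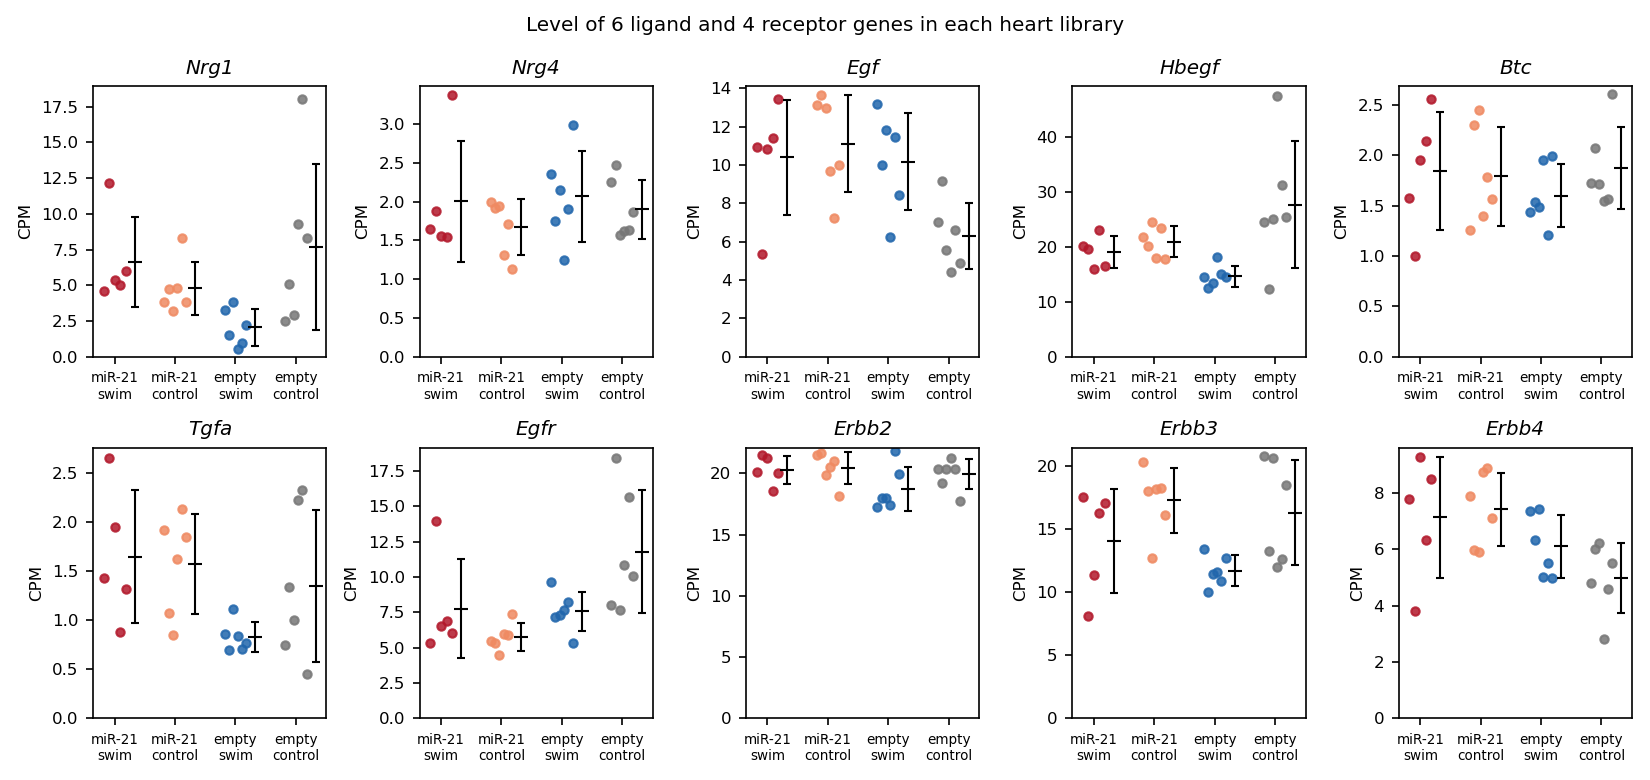
CPM of each member (vertical axis, linear from 0) in every library of miR-21 swimming, miR-21 control, empty-vector swimming and empty-vector control, with the group mean and SD in black beside the points. Nrg1 is lowest in empty-vector swimming (0.557 to 3.86 CPM), Egf in empty-vector control, and Erbb2 is nearly level over all 23 libraries (17.2 to 21.9 CPM).

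Nrg4, a ligand of ErbB4 known as a product of adipose tissue, was low in all groups. It averaged 2.0 ± 0.78 CPM in miR-21 swimming, 1.67 ± 0.36 in miR-21 control, 2.07 ± 0.59 in empty-vector swimming and 1.90 ± 0.38 in empty-vector control (SD, n = 5, 6, 6 and 6). Its log2 fold changes lay between -0.19 and 0.26 in the 4 comparisons, and none was called. Of the 3 libraries with the highest adipocyte markers, miR-21 swimming replicate 2 had 1.88 CPM, the second highest of its group, and empty-vector control replicates 2 and 5 had 2.47 CPM, the highest of their group, and 1.63 CPM. The highest values of all libraries were 3.38 CPM in miR-21 swimming replicate 5 and 2.98 CPM in empty-vector swimming replicate 6.

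Hbegf encodes heparin-binding EGF-like growth factor, a ligand of EGFR and ErbB4 that is cut from the cell surface. Its level was 20.2, 19.7, 16.0, 23.1 and 16.5 CPM in miR-21 swimming. It ran from 17.9 to 24.5 CPM (median 21) in miR-21 control, from 12.6 to 18.2 (median 14.5) in empty-vector swimming and from 12.4 to 47.6 (median 25.2) in empty-vector control. Of the 6 empty-vector control libraries 5 were above every empty-vector swimming library, while replicate 2, at 12.4 CPM, was below all of them. Hbegf fell by 0.92 ± 0.20 on the log2 scale in empty-vector swimming, against empty-vector control (edgeR, adjusted p = 0.00732), and 6 of 6 swimming libraries were below the control mean. The call held in 23 of 23 fits with 1 library left out (-1.07 to -0.70) and was lost with the title series term (-0.81, adjusted p = 0.372). Hbegf was not called in the other comparisons: -0.40 ± 0.19 for miR-21 control over empty-vector control (adjusted p = 0.178), 0.38 ± 0.21 for miR-21 swimming over empty-vector swimming (adjusted p = 0.318) and -0.13 ± 0.21 for miR-21 swimming over miR-21 control (adjusted p = 0.734).

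Egf, which encodes EGF, the founding ligand of EGFR, ran the other way. It stood at 11, 5.35, 10.8, 11.4 and 13.4 CPM in miR-21 swimming. The level ran from 7.25 to 13.7 CPM (median 11.5) in miR-21 control, from 6.26 to 13.2 (median 10.7) in empty-vector swimming and from 4.45 to 9.16 (median 6.08) in empty-vector control. Empty-vector control was the lowest group, and 5 of 6 miR-21 control libraries were above all of its libraries. The log2 fold change of miR-21 control over empty-vector control was 0.82 ± 0.22 (edgeR, adjusted p = 0.049), with 6 of 6 libraries above the control mean. It too sat at the threshold: the call was lost without any 1 library of miR-21 control, replicates 3, 4, 5 or 6 of empty-vector control, replicates 1, 2, 3, 5 or 6 of empty-vector swimming, or replicates 1 or 4 of miR-21 swimming. The log2 fold change stayed between 0.73 and 0.97 in these fits, with adjusted p of 0.00461 to 0.113. The call was lost as well with upper quartile scaling (adjusted p = 0.0502) and with no filter (0.0572). Within the libraries numbered in the 1300s it was 0.82 (adjusted p = 0.0885), and without the 3 libraries that stood apart it was 1.02 (adjusted p = 0.00742).

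With swimming and the empty vector, Egf was just outside the threshold, at 0.69 ± 0.22 (adjusted p = 0.052), with 4 of 6 swimming libraries above every control library. It passed without the 3 libraries that stood apart (0.89, adjusted p = 0.00466) and when empty-vector control replicate 2, empty-vector swimming replicate 4, miR-21 control replicate 5 or miR-21 swimming replicate 2 alone was left out. It also passed with upper quartile scaling, DESeq2, limma voom and only the 2 groups (adjusted p = 0.0452, 0.0268, 0.0233 and 0.0446). With the title series term the change was 0.14 (adjusted p = 0.9). Egf was not called for miR-21 swimming over empty-vector swimming (0.026 ± 0.22, adjusted p = 0.965) or over miR-21 control (-0.10 ± 0.22, adjusted p = 0.827). Egf was lowest within its group in miR-21 swimming replicate 2, at 5.35 CPM, the library with the lowest summed cardiomyocyte markers (54472 CPM). Empty-vector swimming replicate 4 was also lowest of its group in both (6.26 and 84358 CPM). The control groups went otherwise. In empty-vector control the lowest sum was in replicate 5 (69803 CPM), with Egf at 6.59 CPM, above the group median. Replicate 2 there, at 76226 CPM, had the highest Egf (9.16 CPM). In miR-21 control the lowest Egf was in replicate 5 (7.25 CPM) and the lowest sum in replicate 6 (97837 CPM). Whether cell makeup had a part in the Egf levels was not tested.

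The remaining ligands were scarce. Tgfa, which encodes the EGFR ligand TGF-alpha, stood at 0.883 to 2.65 CPM in miR-21 swimming, 0.843 to 2.13 in miR-21 control, 0.698 to 1.11 in empty-vector swimming and 0.446 to 2.32 in empty-vector control. It was most even and lowest in empty-vector swimming, and 4 of 5 miR-21 swimming libraries were above all of that group. Its log2 fold change there was 0.99 ± 0.36 (edgeR, adjusted p = 0.122), and it was called in none of the comparisons. It was -0.70 ± 0.35 for empty-vector swimming over empty-vector control (adjusted p = 0.230). For miR-21 control over empty-vector control it was 0.22 ± 0.34 (adjusted p = 0.685), and for miR-21 swimming over miR-21 control 0.067 ± 0.35 (adjusted p = 0.931). Btc, which encodes betacellulin, averaged 1.84 ± 0.59 CPM in miR-21 swimming, 1.79 ± 0.49 in miR-21 control, 1.60 ± 0.31 in empty-vector swimming and 1.87 ± 0.40 in empty-vector control (SD, n = 5, 6, 6 and 6), and its log2 fold changes lay between -0.23 and 0.20.

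Egfr, the receptor of EGF, TGF-alpha, HB-EGF and betacellulin, differed most among the receptors. It stood at 5.33, 13.9, 6.56, 6.92 and 6.01 CPM in miR-21 swimming. It ran from 4.47 to 7.39 CPM (median 5.68) in miR-21 control, from 5.35 to 9.66 (median 7.47) in empty-vector swimming and from 7.65 to 18.5 (median 10.4) in empty-vector control. All 6 miR-21 control libraries were below all 6 empty-vector control libraries. Egfr fell by 1.04 ± 0.23 on the log2 scale in miR-21 control, against empty-vector control (edgeR, adjusted p = 0.0303). The call was lost without empty-vector control replicates 2, 4 or 5, or without any 1 of miR-21 control replicates 1 to 5, with adjusted p up to 0.106 and log2 fold changes of -1.14 to -0.85. Within the libraries numbered in the 1300s the change was -1.03 (adjusted p = 0.0800).

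In 3 of the 4 groups the library with the highest Egfr also had the highest fibroblast marker sum. In miR-21 control this was replicate 6 (Egfr 7.39 CPM, fibroblast sum 1894 CPM). Empty-vector swimming went otherwise: Egfr was highest in replicate 1 (9.66 CPM), with a fibroblast sum of 1869 CPM. Its highest fibroblast sum, 3079 CPM, was in replicate 4, with Egfr at 7.66 CPM. Empty-vector control replicates 2, 4 and 5 had Egfr at 18.5, 10.8 and 15.7 CPM and the 3 highest fibroblast sums of their group. MiR-21 swimming replicate 2 had Egfr at 13.9 CPM and a fibroblast sum of 4741 CPM, both the highest of its group. Of the 8 fibroblast markers, edgeR called 1 lower in miR-21 control and 1 in empty-vector swimming, each against empty-vector control. Of all genes, 2.25% and 7.46% were called there. The median log2 fold change of the 8 was -1.35 and -0.53. At an unadjusted p under 0.05 there were 8 and 3 of the 8, beside 28.4% and 23.3% of all genes. DESeq2 called 6 and 1 of them, and limma voom 2 and 0. Without the 3 libraries that stood apart the counts that fell by edgeR were 2 and 0. None of the 8 was at 0 throughout a group. Without the 3 libraries that stood apart, Egfr in miR-21 control against empty-vector control changed by -0.67 (adjusted p = 0.015), a smaller difference than with them. The part of fibroblast content in the Egfr difference was not tested.

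With swimming and the empty vector, Egfr changed by -0.64 ± 0.23 (edgeR, adjusted p = 0.0887), with 6 of 6 libraries below the control mean. Among the fits with 1 library left out it passed the threshold only without miR-21 swimming replicate 2 (adjusted p = 0.0208), and without the 3 libraries that stood apart it was -0.27 (adjusted p = 0.249). With the title series term the change was -0.065 (adjusted p = 0.959). Under the miR-21 vector the values were 0.044 ± 0.24 for swimming hearts over empty-vector swimming (adjusted p = 0.941) and 0.44 ± 0.24 over miR-21 control (adjusted p = 0.331). The first of these turned to -0.28 without miR-21 swimming replicate 2.

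**Figure D4:**
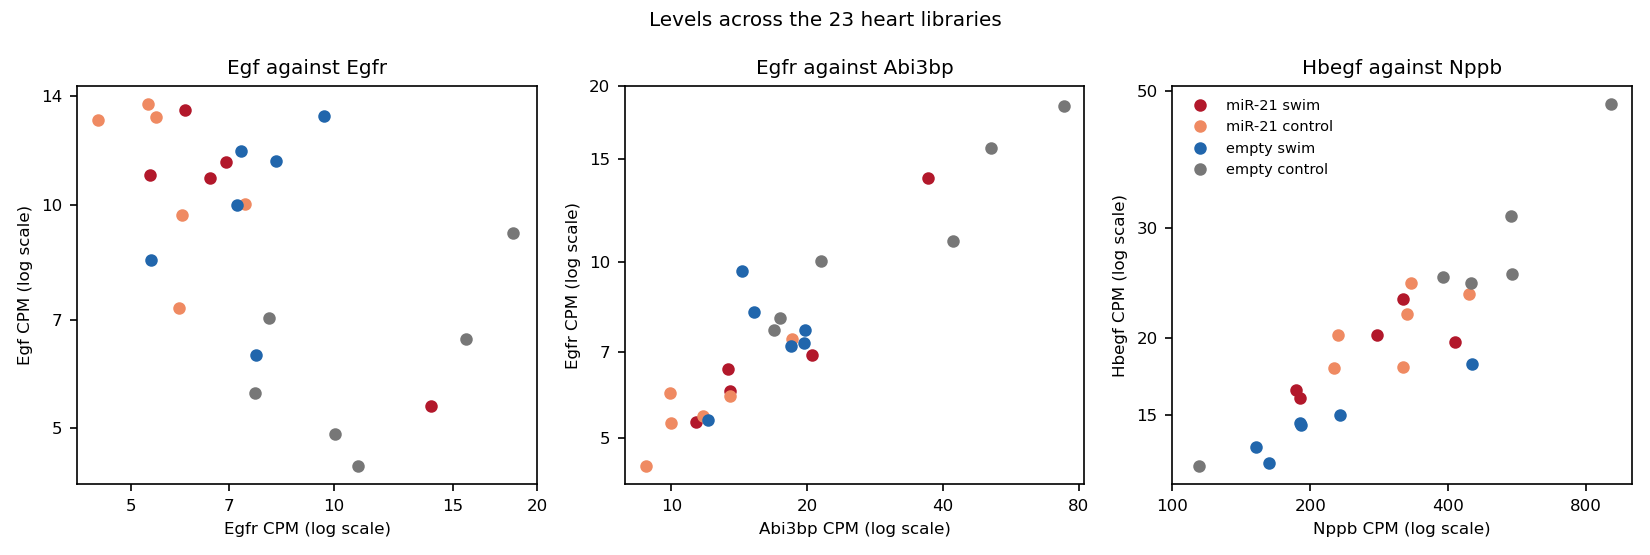
Levels in CPM (log axes) over the 23 libraries, coloured by group: Egf against Egfr, Egfr against Abi3bp, the gene of an extracellular matrix protein, and Hbegf against Nppb, the gene of the natriuretic peptide BNP. Empty-vector control libraries span 7.65 to 18.5 CPM of Egfr and 4.45 to 9.16 CPM of Egf, and overlap other groups in both. Hbegf follows Nppb over all groups (Pearson r = 0.911).

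Erbb2, the receptor that pairs with the others, was the most even member. It averaged 20.3 ± 1.16 CPM in miR-21 swimming, 20.5 ± 1.29 in miR-21 control, 18.7 ± 1.81 in empty-vector swimming and 19.9 ± 1.23 in empty-vector control (SD, n = 5, 6, 6 and 6). The log2 fold changes lay between -0.088 and 0.11 and none was called, with standard errors of 0.066 to 0.069.

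Erbb3 encodes a receptor with little kinase activity of its own that signals through its partner. Its level was 17.6, 8.12, 11.4, 16.3 and 17.1 CPM in miR-21 swimming, lowest in replicate 2, as was that of Erbb4. It ran from 12.7 to 20.3 CPM (median 18.1) in miR-21 control, from 10.1 to 13.5 (median 11.5) in empty-vector swimming and from 12 to 20.8 (median 15.9) in empty-vector control. Empty-vector swimming was the lowest and most even group, and 4 of its 6 libraries were below all empty-vector control libraries. The log2 fold change of empty-vector swimming over empty-vector control was -0.48 ± 0.17 and did not pass (edgeR, adjusted p = 0.0946). It passed without the 3 libraries that stood apart (-0.62, adjusted p = 0.00723) without miR-21 swimming replicate 2 alone (-0.47, adjusted p = 0.0333) and with limma voom (-0.60, adjusted p = 0.00467). In the other comparisons it was 0.087 ± 0.17 for miR-21 control over empty-vector control, 0.26 ± 0.18 for miR-21 swimming over empty-vector swimming and -0.30 ± 0.18 for miR-21 swimming over miR-21 control, and none was called by edgeR. Limma voom called the second of these (0.44, adjusted p = 0.0337).

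Erbb4 encodes the neuregulin receptor with full kinase activity. It stood at 7.81, 3.82, 9.29, 6.33 and 8.48 CPM in miR-21 swimming. The level ran from 5.90 to 8.89 CPM (median 7.5) in miR-21 control, from 4.97 to 7.42 (median 5.94) in empty-vector swimming and from 2.83 to 6.22 (median 5.15) in empty-vector control. Of the 6 miR-21 control libraries, 4 were above every empty-vector control library. The log2 fold change was 0.57 ± 0.20 (edgeR, adjusted p = 0.0867), which passed only without miR-21 swimming replicate 2 among the fits with 1 library left out (0.58, adjusted p = 0.017). It also passed with limma voom (adjusted p = 0.033) and with only the 2 groups (0.0475). The other log2 fold changes of Erbb4 lay between -0.060 and 0.29. Egf, Egfr and Erbb4, the members whose 3′ UTRs hold a miR-21 word, thus had log2 fold changes of 0.82, -1.04 and 0.57 in miR-21 control over empty-vector control, and 0.026, 0.044 and 0.22 in miR-21 swimming over empty-vector swimming.

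The authors' deposited tables of the 4 comparisons give nearly the same log2 fold changes with other adjusted values. In the authors' deposited table for miR-21 control over empty-vector control, Egf had a log2 fold change of 0.82 with a q-value of 0.0066, Egfr -1.03 with 0.0201 and Erbb4 0.57 with 0.0431. In the authors' deposited table for empty-vector swimming over empty-vector control, Egf had a q-value of 0.0485, Hbegf 0.0899 and Nrg1 0.135. In the authors' deposited table for miR-21 swimming over empty-vector swimming, Nrg1 had a log2 fold change of 1.68 with a q-value of 0.0501. Hbegf and Nrg1 with swimming and Nrg1 in miR-21 swimming over empty-vector swimming are thus called here and not at 0.05 in the authors' deposited tables. Erbb4 with the miR-21 vector and Egf with swimming are called there and not here.

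Of 5 further ligands of the family, Areg, Epgn and Nrg3 had 0 to 7 counts in every library and were not tested. Ereg, which encodes epiregulin, had 1 to 18 counts in miR-21 swimming, 0 to 3 in miR-21 control, 1 to 7 in empty-vector swimming and 5 to 28 in empty-vector control. It was called lower in miR-21 control and in empty-vector swimming, each against empty-vector control (edgeR, adjusted p = 0.0294 and 0.0447), at counts that limit the size of the difference. It passed the filter on low counts mainly through empty-vector control, the group that both calls are made against. The calls are therefore given only as a description. Ereg passed that filter in 19 of 23 fits with 1 library left out. The first call was lost without any 1 of miR-21 control replicates 1, 2, 3, 4 or 6. The second was lost without empty-vector swimming replicates 1, 2, 3, 5 or 6 or miR-21 control replicate 4. With the title series term the second turned to 0.36 on the log2 scale (adjusted p = 0.912), within the libraries numbered in the 1300s the first was lost (adjusted p = 0.0675), and with no filter the second was lost (0.064). Ereg did not pass the filter without the 3 libraries that stood apart. Nrg2, a neuregulin of the nervous system, averaged 3.84 ± 1.02 CPM in miR-21 swimming, 2.94 ± 0.55 in miR-21 control, 3.61 ± 1.21 in empty-vector swimming and 2.26 ± 0.59 in empty-vector control (SD, n = 5, 6, 6 and 6), and was not called by edgeR. DESeq2 called it for empty-vector swimming over empty-vector control, where DESeq2 called 10.5% of all genes. With no filter, edgeR gave a log2 fold change of 0.68 ± 0.23 there (SE, adjusted p = 0.0849).

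Of 12 genes that release the ligands from the cell surface or help to, 1 rose and 1 fell with swimming under the empty vector. Of all genes tested, 7.46% were called there. Adam19, a protease able to cut neuregulin, averaged 52.1 ± 8.32 CPM in empty-vector swimming, against 34.2 ± 5.53 CPM in empty-vector control (SD, n = 6 each), a log2 fold change of 0.60 ± 0.14 (edgeR, adjusted p = 0.009). This call held in 23 of 23 fits with 1 library left out and was lost with the title series term (0.49, adjusted p = 0.424). Adam8 averaged 2.93 ± 0.85 CPM against 9.76 ± 6.92 CPM in the same groups (-1.74 ± 0.49, adjusted p = 0.0327). Its call held in 15 of 23 such fits. It was lost without empty-vector control replicates 2, 4 or 5 or empty-vector swimming replicates 1, 2, 3, 5 or 6, without the 3 libraries that stood apart (-0.93, adjusted p = 0.0521) and with the title series term (-0.50, adjusted p = 0.828). In miR-21 control against empty-vector control, 2 of the 12 fell, where 2.25% of all genes were called. Adam12, a protease known to cut HB-EGF, fell by 2.30 ± 0.58 on the log2 scale (edgeR, adjusted p = 0.0446), and Adam15 by 0.34 ± 0.09 (adjusted p = 0.0478). Adam12 averaged 0.939 ± 0.374 CPM in miR-21 control and 4.67 ± 2.95 CPM in empty-vector control (SD, n = 6 each). These 2 calls held in 8 and 7 of 23 fits, and both were lost when empty-vector control replicates 2, 4 or 5, any miR-21 control library, miR-21 swimming replicate 4 or empty-vector swimming replicates 1, 2, 3, 5 or 6 were left out, and that of Adam15 also without empty-vector swimming replicate 4. Both were also lost with no filter (adjusted p = 0.0575 and 0.0587) and within the libraries numbered in the 1300s (0.0675 and 0.0792). In miR-21 swimming over empty-vector swimming and over miR-21 control, 0 of 12 were called by edgeR, with 3 and 4 at an unadjusted p under 0.05 (19.8% and 18.8% of all genes), while DESeq2 called 0 and 1 and limma voom 4 and 0.

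Of 25 adaptors and kinases that carry the receptor signal, 2 rose and 2 fell with swimming under the empty vector. Of all genes tested, 7.46% were called there. Grb2, the adaptor that binds activated receptors, averaged 102 ± 6.83 CPM in empty-vector swimming and 84.9 ± 5.05 CPM in empty-vector control (SD, n = 6 each), a log2 fold change of 0.27 ± 0.05 (edgeR, adjusted p = 0.00282). Akt1, a kinase of the PI3K route, averaged 325 ± 31.6 and 245 ± 38.8 CPM in the same groups (0.41 ± 0.10, adjusted p = 0.0205). Ptpn11, the phosphatase SHP2, averaged 346 ± 27.7 and 448 ± 53.0 CPM (-0.37 ± 0.09, adjusted p = 0.0135). Sos1, which activates RAS, averaged 26.6 ± 1.79 and 30.4 ± 1.29 CPM (-0.19 ± 0.05, adjusted p = 0.028). The calls of Grb2 and Ptpn11 held in 23 of 23 fits with 1 library left out. That of Akt1 was lost without empty-vector control replicate 5 (adjusted p = 0.0609), and that of Sos1 without empty-vector control replicate 1 or empty-vector swimming replicates 2, 3 or 4 and with no filter (adjusted p = 0.0626). With the title series term, the calls of Grb2 (0.15, adjusted p = 0.51), Akt1 (0.37, adjusted p = 0.438) and Sos1 (-0.32, adjusted p = 0.121) were lost, while that of Ptpn11 held in all 9 other settings.

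In miR-21 swimming over empty-vector swimming, Sos1 rose. It averaged 31.3 ± 1.88 CPM in miR-21 swimming and 26.6 ± 1.79 CPM in empty-vector swimming (SD, n = 5 and 6), a log2 fold change of 0.24 ± 0.06 (edgeR, adjusted p = 0.0163). The call held in 23 of 23 fits with 1 library left out and was lost with only the 2 groups (adjusted p = 0.078). The 25 genes gave 0 calls by edgeR in miR-21 control over empty-vector control, with 10 at an unadjusted p under 0.05 (28.4% of all genes), 4 called by DESeq2 and 3 by limma voom. They also gave 0 in miR-21 swimming over miR-21 control, with 7 at an unadjusted p under 0.05 (18.8% of all genes) and 0 by either other tool.

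Of 13 receptor partners and chaperones of ErbB receptors, 2 fell with swimming under the empty vector, where 7.46% of all genes were called. Hsp90aa1, a chaperone that keeps ErbB2 stable, averaged 117 ± 13.5 CPM in empty-vector swimming and 172 ± 30.4 CPM in empty-vector control (SD, n = 6 each), a log2 fold change of -0.56 ± 0.11 (edgeR, adjusted p = 0.00306). This call held in 23 of 23 fits and was lost with the title series term (-0.37, adjusted p = 0.44). Il6st, the cytokine co-receptor gp130, averaged 222 ± 9.33 and 266 ± 34.1 CPM (-0.26 ± 0.08, adjusted p = 0.0345), and its call was lost without empty-vector control replicates 2 or 5, empty-vector swimming replicates 2 to 6, or the 3 libraries that stood apart, with no filter and with the title series term. In miR-21 swimming over empty-vector swimming, Itga6, an integrin subunit, fell by 0.61 ± 0.12 on the log2 scale (adjusted p = 0.00378), with 82.6 ± 12.6 CPM in miR-21 swimming and 126 ± 14.3 CPM in empty-vector swimming (SD, n = 5 and 6), in 23 of 23 fits. Il6st was called higher there (0.27 ± 0.08, adjusted p = 0.0493), a call kept in 3 of 23 fits, those without empty-vector control replicates 2 or 5 or miR-21 swimming replicate 2, and in 5 of 10 other settings. The 13 gave 0 calls by edgeR in the other 2 comparisons, with 6 at an unadjusted p under 0.05 (28.4% of all genes) and 4 called by DESeq2 and by limma voom for miR-21 control over empty-vector control, and 0 by each of these for miR-21 swimming over miR-21 control.

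None of 16 negative regulators of the receptors was called by edgeR in any of the 4 comparisons, with 1 or 2 at an unadjusted p under 0.05 in each (18.8% to 28.4% of all genes), and DESeq2 called 1, for miR-21 control over empty-vector control. Limma voom called 1 there and 1 for miR-21 swimming over empty-vector swimming. None of 18 genes induced by ERK signalling was called by edgeR either, with 1 to 4 at an unadjusted p under 0.05, and DESeq2 and limma voom each called 1, for miR-21 control over empty-vector control. The median log2 fold change of the 18 was 0.011 for empty-vector swimming over empty-vector control, -0.052 for miR-21 control over empty-vector control, 0.062 for miR-21 swimming over empty-vector swimming and 0.20 for miR-21 swimming over miR-21 control, beside medians of all genes of -0.0048, -0.0048, 0.018 and 0.029.

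Without the 3 libraries that stood apart, the calls by edgeR in these 4 comparisons, in the same order, were 1, 2, 2 and 0 of the 12 release genes and 5, 3, 6 and 0 of the 25 adaptors and kinases. They were 3, 4, 4 and 0 of the 13 partners and chaperones, 0, 1, 1 and 0 of the 16 negative regulators and 1, 1, 0 and 0 of the 18 ERK-induced genes. The shares of all genes called there, 11.6%, 5.76%, 17.3% and 1%, were also higher than with all libraries.

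Each member's level was also set beside those of 12799 other genes with a mean of at least 1 CPM, by Pearson's r of log2 CPM over the 23 libraries, as a description. The libraries share groups, title series and cell makeup, so r reflects these too. The genes most like Hbegf were Nppb (0.911), the gene of the stretch-induced peptide BNP, Hsp90aa1 (0.897) and Grwd1 (0.884). Those most like Egfr were Clmp (0.937), Abi3bp (0.934) and Pnp (0.927), and those most like Egf were Nqo2 (0.906), Il15 (0.856) and Abca6 (0.85). Nrg1 was most like Thsd4 (0.838), Smoc1 (0.824) and Spon1 (0.791). Erbb3 was most like Pdpk1 (0.917), Sgcd (0.914) and BC034090 (0.904), and Erbb4 was most like Arel1 (0.913), Pcnt (0.89) and Arhgap26 (0.885). The even or scarce members had lower best values, 0.751 for Tgfa with Atn1, 0.74 for Erbb2 with Abhd4, 0.738 for Btc with Map3k13 and 0.616 for Nrg4 with Ccdc114.

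Nppb, a marker of heart wall stress, shows the pattern of Hbegf in single libraries. It stood at 186 to 413 CPM in miR-21 swimming, 225 to 445 in miR-21 control, 152 to 450 in empty-vector swimming and 114 to 908 in empty-vector control. The highest and the lowest library of both genes were the same, empty-vector control replicates 4 and 2. Nppb itself was not called for swimming under the empty vector (-1.10 ± 0.35 on the log2 scale, edgeR, adjusted p = 0.0594). Abi3bp, which follows Egfr, stood at 11.3 to 37.1 CPM in miR-21 swimming, 8.77 to 18.5 in miR-21 control, 12.1 to 19.8 in empty-vector swimming and 16.9 to 74.0 in empty-vector control.

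Among the members themselves, the pairs most alike over the 23 libraries were Egf with Erbb4 (r = 0.659) and Nrg1 with Tgfa (r = 0.619). The most opposed were Egf with Hbegf (r = -0.557), Egf with Egfr (r = -0.526) and Egfr with Erbb4 (r = -0.518). Nrg1 and its receptors showed weak values, with r = 0.09 for Erbb3 and -0.087 for Erbb4.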

How the data were processed

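Hearts of 24 labelled samples in 4 groups were sequenced, and 23 had a column in the tables; miR-21 swimming replicate 6 was not analysed here. Per the labels' protocols, TRIzol was used for extraction and a kit for stranded mRNA for the libraries. The genome build was GRCm39, per the submitters' processing notes, and for aligner and counter the tool is not given in the sources used here. The authors deposited raw counts per gene, which were used for every test. FPKM values were computed by the authors and equal the count per library total and an implied gene length. The log2 fold changes and p-value and q-value columns of 4 comparison tables were deposited by the authors, with no tool named. Another 46 per-sample columns of those tables were not used.

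Genes were filtered with filterByExpr and scaled by TMM, and all 23 libraries entered 1 edgeR quasi-likelihood fit (robust, 4 group means). A gene was called at a Benjamini-Hochberg adjusted p under 0.05 over 13501 genes. SE is that of the fit, and SD is between libraries. The precision of each value is limited by 12744241 to 14657630 counts per library and 5 or 6 libraries a group. Replicates were numbered in accession order. The fit was tested on simulated data with changes placed in empty-vector swimming. It recovered 81 of 100 genes changed by 1 on the log2 scale and 89 of 100 changed by 2. Of the 181 genes called there, 11 were false. Alternatives were limma voom with quality weights, DESeq2, RLE and upper quartile scaling, no filter, a minimum mean of 1 CPM, only the 2 groups, a term for title series, 1 title series, without the 3 libraries that stood apart, and without each library. Fits used edgeR 4.0.16, DESeq2 1.42.0 and limma 3.58.1 under R 4.3.3, and tables and figures used pandas 2.3.3, matplotlib 3.10.9 and numpy 2.4.6 under Python 3.11.15.

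The members, the pathway and marker lists and the alternatives were chosen with earlier results of these data known. Genes named are the 10 members, the further ligands of the family and up to 4 called genes with the smallest p from each of 6 pathway lists. Lists without a called gene are given as counts. The 3 genes with the highest r to each member are also named, or the highest alone for Tgfa, Erbb2, Btc and Nrg4. A result for 1 gene of these lists is not reported here. Sequences came from RefSeq (GRCm38.p6) and GENCODE M21, matched by symbol, while the counts are of a later build.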

Additional observations from a re-analysis of the deposited data

Results flagged for a closer look

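In 4 of 40 sets of member and group, the highest library lay farther from its nearest neighbour, relative to the range of the group, than Dixon's 95% critical value (0.71 for 5 libraries, 0.625 for 6). Chance alone gives about 1 in 20. Nrg1 was at 12.2 CPM in miR-21 swimming replicate 2, and the other libraries of that group were at 4.58 to 6.01 CPM. Egfr was at 13.9 CPM in the same library, and the others of the group were at 5.33 to 6.92 CPM. That library also had the highest adipocyte (402 CPM), mesothelial (207 CPM), fibroblast (4741 CPM) and macrophage (2216 CPM) marker sums and the lowest cardiomyocyte sum (54472 CPM) of its group, and the part of these in its Nrg1 and Egfr levels was not tested. Nrg1 was at 8.32 CPM in miR-21 control replicate 5, where the others of the group were at 3.21 to 4.80 CPM. Nrg4 was at 3.38 CPM in miR-21 swimming replicate 5, where the others of the group were at 1.55 to 1.88 CPM.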

How the results depend on the processing

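No paired analysis was possible because the labels give no replicate numbers shared between groups. For swimming with the empty vector, the 2 members called became 4 with limma voom, 0 with the title series term and 4 without the 3 libraries that stood apart. The 7.46% of tested genes called became 12.5%, 1.21% and 11.6% there, and 4.76% with no filter. For the miR-21 vector without swimming, the 2 members became 1 with upper quartile scaling, 1 with no filter and 0 within 1 title series. The 2.25% of genes became 0.842% with no filter, 9.15% with DESeq2, 9.68% with limma voom, 12.5% with only the 2 groups, 6.75% with the title series term, 0.187% within 1 series and 5.76% without the 3 libraries. For the miR-21 vector with swimming, the 1 member became 0 with upper quartile scaling, no filter, only the 2 groups, the title series term and 1 series, and 2 with limma voom. The 4.58% of genes became 2.76% with no filter, 7.18% with DESeq2, 19.8% with limma voom, 1.26% with only the 2 groups, 10.2% within 1 series and 17.3% without the 3 libraries. For swimming with the miR-21 vector, members stayed at 0. The 0.17% of genes became 0.304% with upper quartile scaling, 0% with no filter, only the 2 groups and 1 series, 2.8% with DESeq2, 2.21% with limma voom, 7.97% with the title series term and 1% without the 3 libraries. For the interaction, 0 members became 2 with DESeq2, and the 0.541% of genes became 0.354% with no filter, 5.33% with DESeq2, 0.97% with limma voom and 0.185% with the title series term. Leaving out 1 library gave 1 to 5 members and 4.5% to 14.2% of genes for swimming with the empty vector, 0 to 3 and 0.127% to 21.3% for the miR-21 vector without swimming, and 0 to 1 and 2.45% to 13.8% for it with swimming. It gave 0 members and 0% to 0.632% for swimming with the miR-21 vector, and 0 to 1 and 0.134% to 2.63% for the interaction. The cause of these moves was not tested. Swimming with the empty vector could not be fitted within 1 title series, since no series holds both groups. In FPKM the order of the 4 group means was as in CPM for 9 of 10 members.

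Signs turned in 17 of 50 member comparisons, 0 of them called. With the title series term, log2 fold changes for swimming with the empty vector turned to -0.18 in Erbb4 and -0.16 in Nrg4. For the miR-21 vector without swimming, Erbb3 turned to -0.053 without the 3 libraries. For that vector with swimming, Egfr turned to -0.31 with limma voom, -0.22 with the term, -0.20 within 1 series and -0.28 without the 3 libraries, and Nrg4 to 0.061 with the term and 0.075 within 1 series. For swimming with the miR-21 vector, Btc turned to -0.48 with the term and within 1 series, Egf to 0.025 with limma voom and 0.074 without the 3 libraries, and Erbb2 to 0.013 with upper quartile scaling, 0.024 with the term and 0.023 within 1 series. There Erbb4 turned to 0.028 and Tgfa to -0.24 with limma voom, and to 0.10 and -0.18 without the 3 libraries. For the interaction, limma voom turned Erbb2 to -0.011 and Tgfa to -0.13. With 1 library left out, the ranges of those that turned were -0.018 to 0.23 for Nrg4 for swimming with the empty vector, and -0.18 to 0.039 for Btc and -0.00098 to 0.063 for Erbb2 for the miR-21 vector without swimming. They were -0.084 to 0.21 for Egf, -0.28 to 0.15 for Egfr and -0.31 to 0.087 for Nrg4 for that vector with swimming. For swimming with the miR-21 vector they were -0.11 to 0.21 for Btc, -0.21 to 0.077 for Egf, -0.039 to 0.024 for Erbb2, -0.17 to 0.11 for Erbb4, -0.0035 to 0.35 for Nrg4 and -0.18 to 0.23 for Tgfa. For Nrg4 in the interaction the range was -0.12 to 0.28.

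The main limits are the title series, which cannot be told apart from swimming under the empty vector, the calls of Egf and Egfr without swimming and of Nrg1 in miR-21 swimming, which sit near the threshold and depend on single libraries, and the low counts of Tgfa, Btc and Nrg4.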

Other observations

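Marker genes of other cell types were measured beside the members. Of all genes, edgeR called 7.46% in empty-vector swimming and 2.25% in miR-21 control, each against empty-vector control. The share was 4.58% in miR-21 swimming against empty-vector swimming. Without the 3 libraries that stood apart these shares were 11.6%, 5.76% and 17.3%. In empty-vector swimming against empty-vector control, edgeR called 3 of 8 endothelial, 3 of 8 smooth muscle and 2 of 7 Schwann cell markers higher, and 4 of 5 adipocyte, 2 of 7 T cell, 1 of 8 fibroblast and 1 of 8 mesothelial markers lower, with 0 of 8 cardiomyocyte and 0 of 8 macrophage markers called. Without the 3 libraries that stood apart, 3 of 8 endothelial, 3 of 8 smooth muscle and 1 of 7 Schwann cell markers were higher there, and 3 of 4 adipocyte, 5 of 7 mesothelial, 0 of 6 T cell and 0 of 8 fibroblast markers were lower. With limma voom 1 adipocyte marker was called. In miR-21 control against empty-vector control, 1 of 8 fibroblast and 2 of 8 smooth muscle markers were lower. With those 3 libraries left out, 2 of 8 fibroblast and 2 of 4 adipocyte markers were lower there, 2 of 8 smooth muscle markers were lower and 2 higher, and 1 of 8 cardiomyocyte markers was higher. In miR-21 swimming against empty-vector swimming, 3 of 8 endothelial markers were lower and 5 of 8 mesothelial markers higher. The mesothelial calls rest on miR-21 swimming replicate 2, with a summed level of 207 CPM, since the median sum was 6.98 CPM in miR-21 swimming and 11 CPM in empty-vector swimming. Leaving out the 3 libraries gave 0 of 7 mesothelial markers higher and 1 lower, 4 of 8 endothelial and 1 of 8 fibroblast markers lower, and 3 of 8 cardiomyocyte and 1 of 8 smooth muscle markers higher. Limma voom called 1 mesothelial marker with all libraries. Endothelial markers, the known source of neuregulin-1 in heart, summed to 1236 to 1458 CPM in miR-21 swimming, 1328 to 1449 in miR-21 control, 1465 to 1816 in empty-vector swimming and 1278 to 1537 in empty-vector control. The range of empty-vector swimming lay above those of both miR-21 groups and overlapped that of empty-vector control. The part of endothelial content in the Nrg1 levels was not tested. Schwann cell markers, whose cells depend on Erbb3, summed to 25.6 to 78.4 CPM over all libraries, and the library at 78.4 CPM, miR-21 swimming replicate 2, had the lowest Erbb3 of all libraries, 8.12 CPM. Smooth muscle markers summed to 1105 to 1795 CPM and T cell markers to 2.58 to 32.8 CPM over all libraries. The only marker at 0 in every library of a group was Lep, in empty-vector swimming.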
